A study of Mus musculus with 75 samples.

Results

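The vascular endothelial growth factor (VEGF) ligands and receptors were followed in whole lung of mice with bleomycin-induced fibrosis (BLEO-IPF). They are 8 genes, taken by symbol from the 55536 genes of the count table: the ligands *Vegfa*, *Vegfb* and *Vegfc*, the receptor tyrosine kinases *Flt1*, *Kdr* and *Flt4*, and the co-receptors *Nrp1* and *Nrp2*. All 8 were among the 16221 genes with enough counts to be tested. RNA came from the inferior lobe of 75 male C57BL/6JRj mice, with 1 library per mouse, and the mice were 12 to 14 weeks old at instillation. BLEO-IPF mice had received bleomycin once into the trachea, and groups of 10 mice (day 7), 12 mice (days 14, 21, 28 and 35) and 7 mice (day 42) were terminated after that dose. Only mice with mild to moderate body weight loss entered these groups, so animals outside that range are not represented. The 10 control (CTRL) mice are labelled as saline-treated, whereas the protocol in the same labels calls the controls untreated. All 6 comparisons with CTRL share these 10 mice, whose sample titles name no day. Age at termination rose with the day, so age and time after bleomycin cannot be told apart.

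VEGF-A is secreted mainly by alveolar epithelial cells in the healthy lung and acts on the neighbouring capillary endothelium. *Kdr* is its main signaling receptor, and *Flt1* binds it tightly but signals weakly, so that *Flt1* can act as a decoy. VEGF-B and placental growth factor bind *Flt1*, and VEGF-C and VEGF-D act chiefly through *Flt4*, the receptor of lymphatic endothelium. The neuropilins *Nrp1* and *Nrp2* have no kinase of their own. *Nrp1* presents VEGF-A to *Kdr*, *Nrp2* is a partner of *Flt4*, and both also bind class 3 semaphorins.

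The promoters of 5 of the genes are printed here because *Vegfa*, *Kdr* and *Flt1* were lower together in BLEO-IPF mice while *Vegfc* and *Nrp2* were higher. Each run comes from the RefSeq promoter table (build GRCm38.p6), in which all 8 genes matched by symbol, and is read 5′ to 3′ on the strand of the gene. It covers the 250 bases before the start site, less any base inside the gene model, which left 247 bases for *Kdr* and 218 for *Nrp2*. *Vegfa* had 2 entries, of which the first is shown. Capitals mark ACGTG or GCGTG on either strand, the core bound by hypoxia-inducible factors, and TGACGTCA, the cyclic AMP response element.
Vegfa: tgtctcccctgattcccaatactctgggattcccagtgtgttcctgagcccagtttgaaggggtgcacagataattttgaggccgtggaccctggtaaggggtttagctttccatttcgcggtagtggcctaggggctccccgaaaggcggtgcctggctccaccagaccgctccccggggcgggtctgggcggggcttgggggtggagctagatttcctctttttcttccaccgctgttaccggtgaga
Kdr: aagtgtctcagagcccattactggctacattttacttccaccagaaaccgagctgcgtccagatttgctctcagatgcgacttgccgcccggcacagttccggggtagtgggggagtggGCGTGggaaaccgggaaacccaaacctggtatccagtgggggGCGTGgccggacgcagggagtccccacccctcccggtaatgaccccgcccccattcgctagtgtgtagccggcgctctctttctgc
Flt1: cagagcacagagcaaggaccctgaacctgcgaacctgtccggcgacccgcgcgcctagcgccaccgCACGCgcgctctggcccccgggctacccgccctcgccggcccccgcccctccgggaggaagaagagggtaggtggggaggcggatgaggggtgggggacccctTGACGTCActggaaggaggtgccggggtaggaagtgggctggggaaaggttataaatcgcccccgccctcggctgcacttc
Vegfc: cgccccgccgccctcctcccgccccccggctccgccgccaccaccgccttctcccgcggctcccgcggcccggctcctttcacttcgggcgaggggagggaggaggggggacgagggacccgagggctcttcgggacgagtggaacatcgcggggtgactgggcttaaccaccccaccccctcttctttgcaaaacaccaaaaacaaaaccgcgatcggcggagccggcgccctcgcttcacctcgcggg
Nrp2: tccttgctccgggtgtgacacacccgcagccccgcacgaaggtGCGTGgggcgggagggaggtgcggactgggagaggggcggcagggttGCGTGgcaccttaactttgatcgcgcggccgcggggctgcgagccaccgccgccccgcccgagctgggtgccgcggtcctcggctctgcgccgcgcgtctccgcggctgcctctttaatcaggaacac
The *Vegfa* window is chr17:46032378-46032627, the *Kdr* window chr5:75978459-75978705 and the *Flt1* window chr5:147726012-147726261, all on the minus strand. The *Vegfc* window is chr8:54077282-54077531 and the *Nrp2* window chr1:62703067-62703284, both on the plus strand. The ACGTG or GCGTG core was found at 2 places each in *Kdr* and *Nrp2* and at 1 place in *Flt1*, and no marked match overlapped another. In *Vegfa* and *Vegfc* these letters were not in the window, and bases farther upstream were not searched. Of the 32851 promoters of the table, 38.6% held the core within 250 bases, 38.3% within 247 and 34.4% within 218. TGACGTCA was found once, in *Flt1*, and in 1.55% of all promoters over 250 bases. The Sp1-type box GGGCGG, which is not marked, was found in all 5 windows on either strand, against 32.7% of all promoters over 250 bases, 32.3% over 247 and 28.2% over 218. The 5 windows held 59.2% to 72.5% G and C, and the median over all promoters was 52.4% over 250 bases. A match is a description of letters and not a bound site.

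Total counts per library lay between 9240291 and 14665247 (median 10677163), and the lowest count of any of the 8 genes in any library was 115, for *Vegfb*. Every one of the 16 endothelial, 12 alveolar type 1 and 10 alveolar type 2 markers was above 0 in every library, as lung tissue should show. In 4 libraries the median correlation with their group was under 0.96 (day 28 mice 1, 5 and 10 and day 14 mouse 8), and calls that change without them are named. Levels are counts scaled to library size with TMM normalization (CPM), and a difference between groups is a log2 fold change (log2FC) with its standard error (SE). Adjusted p-values come from edgeR's quasi-likelihood test with Benjamini-Hochberg adjustment over the 16221 genes, with 0.05 as the threshold.

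In CTRL mice, levels per kilobase of exon (CPM per kb, mean ± SD, n = 10), which allow genes to be compared, spanned a wide range. *Vegfa* stood at 216 ± 13.4 CPM per kb, above *Kdr* at 69.4 ± 5.98, *Nrp1* at 33.9 ± 2.62 and *Flt1* at 31.6 ± 3.10 CPM per kb. The neighbours *Nrp1* and *Flt1* in this order did not differ beyond their SDs. The other 4 genes formed a low tier, with *Vegfb* at 11.0 ± 0.980, *Flt4* at 9.36 ± 0.799, *Nrp2* at 8.83 ± 0.611 and *Vegfc* at 7.71 ± 1.03 CPM per kb. Within this tier *Flt4* and *Nrp2* did not differ beyond their SDs.

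**Figure D1:**
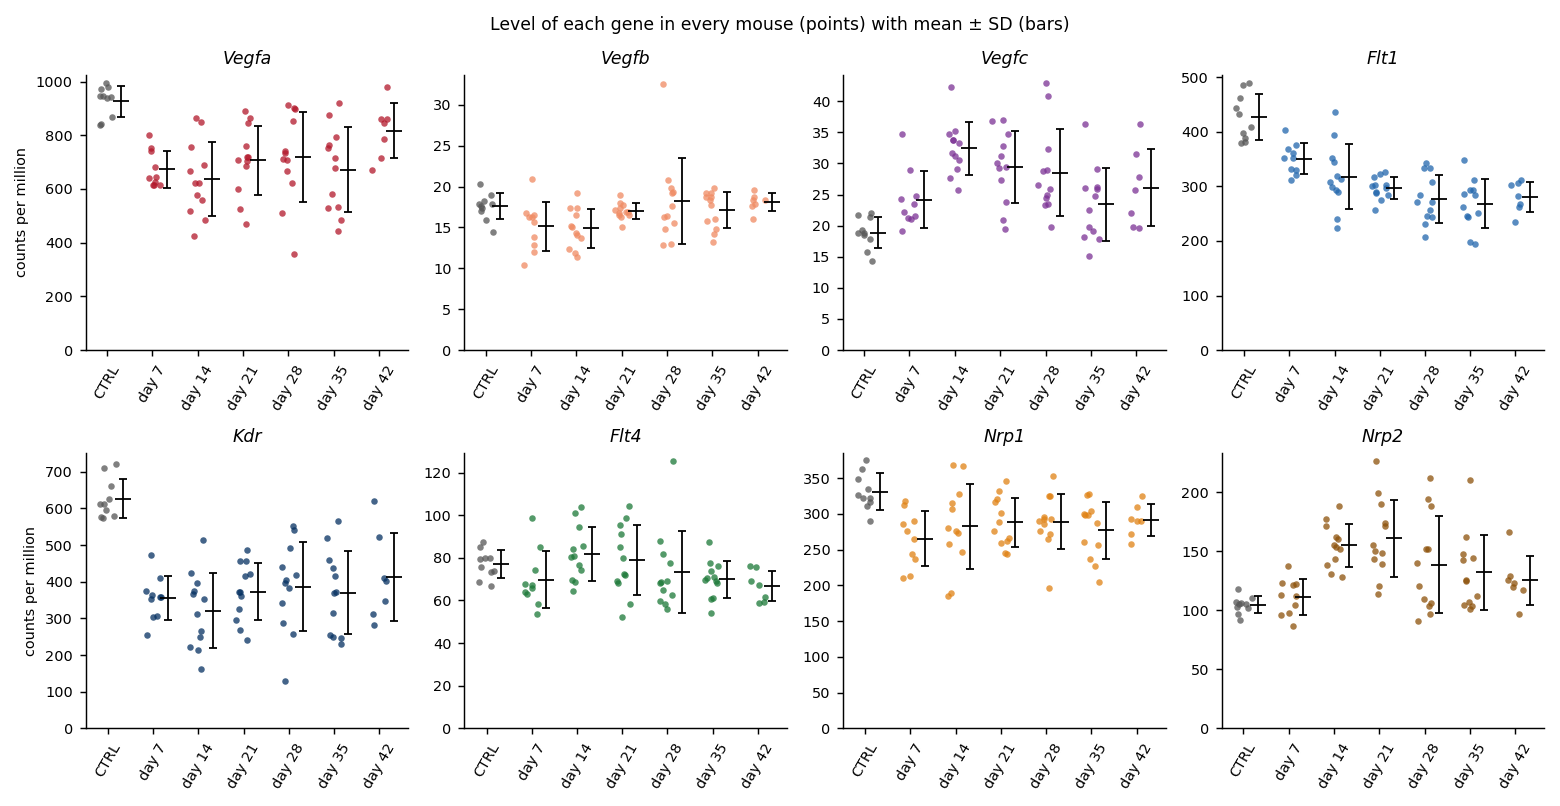
CPM of the 8 genes in each mouse (points, 1 panel per gene, y axis in CPM) for CTRL and days 7 to 42 after bleomycin, with the mean ± SD of each group. The highest *Kdr* level of days 7 to 35 was 565 CPM and the lowest CTRL level 574 CPM, while *Vegfc* on day 14 began at 25.7 CPM, above the CTRL maximum of 22.1 CPM.

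After bleomycin, *Vegfa*, *Kdr*, *Flt1* and *Nrp1* were downregulated and *Vegfc* and *Nrp2* were upregulated, while *Flt4* did not pass the test on any day and *Vegfb* passed on day 14 alone. On day 7, 5 of the 8 genes passed (1 higher and 4 lower), where 45.7% of all genes tested did (24.8% higher and 20.9% lower). On day 14 it was 7 of 8 (2 higher and 5 lower), where 62.3% of all genes tested did (32.4% higher and 29.9% lower). On day 21 it was 6 of 8 (2 higher and 4 lower), where 54.2% of all genes tested did (28.3% higher and 25.8% lower). Bleomycin changed a large part of the transcriptome, so these counts are read against that background. On day 28 it was 5 of 8 (2 higher and 3 lower), where 43.2% of all genes tested did (24% higher and 19.2% lower). On day 35 it was 6 of 8 (2 higher and 4 lower), where 29.9% of all genes tested did (16.9% higher and 13% lower), and on day 42 it was 3 of 8 (1 higher and 2 lower), where 24.5% of all genes tested did (13.6% higher and 11% lower). Fitted on the compared groups alone, 7 of the 8 passed on day 42, all but *Vegfb*. The fit over all mice takes the spread of a gene from all 7 groups together. A gene that did not pass on day 42 is therefore not shown to be back at the CTRL level. The median log2FC of the 8 genes ranged from -0.25 on day 7 to -0.12 on day 21, and that of all genes tested was at most 0.02 on any day.

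**Figure D2:**
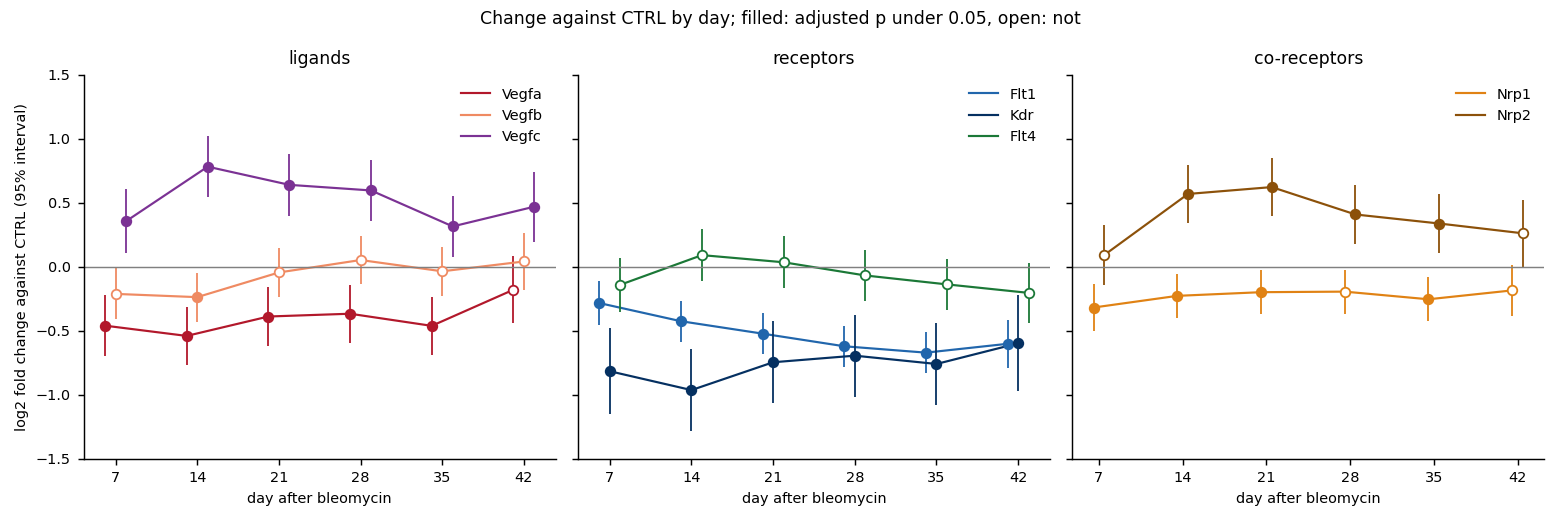
Log2FC against CTRL (y axis, with 95% intervals) by day after bleomycin (x axis) for ligands, receptors and co-receptors, where filled points passed the test and open points did not. *Kdr* and *Flt1* lie below 0 and are filled on all 6 days, *Vegfc* lies above 0 and is filled on all 6 days, and *Flt4* is open throughout.

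*Vegfa* (ENSMUSG00000023951, chromosome 17, 46016993 to 46032369, minus strand, GRCm38) fell within the first week and was lower on days 7 to 35. In CTRL mice it ranged from 838 to 994 CPM (median 945). On day 7 it ranged from 613 to 801 CPM (median 642), so that no mouse reached the lowest CTRL mouse. On day 14 it ranged from 426 to 866 CPM (median 622) and on day 21 from 469 to 892 CPM (median 712). From day 14 on the groups overlapped, since a few mice were within the CTRL range, although on days 14 to 35 others were below all mice of day 7. On day 28 the range was 358 to 911 CPM (median 723), on day 35 it was 443 to 920.2 CPM (median 697) and on day 42 it was 671 to 979 CPM (median 847). The log2FC was -0.46 on day 7 (SE 0.12, adjusted p = 0.00129), -0.54 on day 14 (SE 0.12, adjusted p = 4.53e-05) and -0.39 on day 21 (SE 0.12, adjusted p = 0.00332). It was -0.37 on day 28 (SE 0.12, adjusted p = 0.00731), -0.46 on day 35 (SE 0.12, adjusted p = 0.00127) and -0.18 on day 42 (SE 0.13, adjusted p = 0.336). Without the 4 libraries the day 28 value was -0.28 (adjusted p = 0.0521). With the compared groups fitted alone, the day 42 value was -0.17 (SE 0.07, adjusted p = 0.0429). The coefficient of variation between mice was 6.204% in CTRL and 23.3% on day 35. In order of group means, CTRL was highest and stood apart from day 42 by slightly more than the larger SD, and days 42, 28, 21, 7, 35 and 14 followed, each within the SD of its neighbour.

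*Vegfb* (ENSMUSG00000024962, chromosome 19, 6982473 to 6987651, minus strand) changed little. In CTRL mice it ranged from 14.5 to 20.3 CPM (median 17.8), and the medians of the 6 days lay between 14.7 and 18.3 CPM. It passed the test on day 14 alone, with a log2FC of -0.24 (SE 0.10, adjusted p = 0.0286). On day 7 the log2FC was -0.21 (SE 0.10, adjusted p = 0.0785), and from day 21 to day 42 it stayed between -0.05 and 0.05. With no filter on low counts the day 14 call was lost (adjusted p = 0.0576). Day 28 mouse 10 had the highest level of all, 32.6 CPM, and is among the 4 libraries least like their group. No neighbouring pair of groups in the order of means differed beyond the larger SD.

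*Vegfc* (ENSMUSG00000031520, chromosome 8, 54077606 to 54187096, plus strand) was upregulated on all 6 days. In CTRL mice it ranged from 14.3 to 22.1 CPM (median 18.9). On day 7 it ranged from 19.2 to 34.7 CPM (median 22.9), and on day 14 from 25.7 to 42.3 CPM (median 32.5). All 12 mice of day 14 were above all CTRL mice. On day 21 the range was 19.4 to 36.996 CPM (median 29.8), on day 28 it was 19.8 to 42.9 CPM (median 26.2), on day 35 it was 15.2 to 36.3 CPM (median 23.6) and on day 42 it was 19.7 to 36.3 CPM (median 25.7). Above every CTRL mouse were 6 of 10 mice on day 7, 10 of 12 on day 21, 11 of 12 on day 28, 7 of 12 on day 35 and 4 of 7 on day 42. The log2FC was 0.35 on day 7 (SE 0.13, adjusted p = 0.0185), 0.78 on day 14 (SE 0.12, adjusted p = 1.22e-07) and 0.64 on day 21 (SE 0.12, adjusted p = 1.14e-05). It was 0.59 on day 28 (SE 0.12, adjusted p = 6.99e-05), 0.31 on day 35 (SE 0.12, adjusted p = 0.0441) and 0.47 on day 42 (SE 0.14, adjusted p = 0.00991). The day 35 call was lost with no filter on low counts (adjusted p = 0.0904) and with the replicate number as a block (0.32, adjusted p = 0.0554). In order of means, days 14, 21, 28, 42, 7 and 35 and CTRL followed each other within the larger SD at each step.

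*Flt1* (ENSMUSG00000029648, chromosome 5, 147561604 to 147726011, minus strand), which encodes VEGFR1, was downregulated on all 6 days. CTRL mice ranged from 381 to 490.5 CPM (median 421). On day 7 the range was 311 to 404 CPM (median 352) and on day 14 it was 224 to 436 CPM (median 311). Some mice of these days were within the CTRL range. On day 21 it was 258 to 326 CPM (median 299), on day 28 it was 207 to 342 CPM (median 271), on day 35 it was 195 to 349 CPM (median 273) and on day 42 it was 235 to 312 CPM (median 282). From day 21 to day 42 every BLEO-IPF mouse was below every CTRL mouse. The log2FC was -0.29 on day 7 (SE 0.09, adjusted p = 0.00497), -0.43 on day 14 (SE 0.08, adjusted p = 8.10e-06) and -0.52 on day 21 (SE 0.08, adjusted p = 1.88e-07). It was -0.62 on day 28 (SE 0.08, adjusted p = 8.26e-09), -0.67 on day 35 (SE 0.08, adjusted p = 2.04e-09) and -0.60 on day 42 (SE 0.10, adjusted p = 2.33e-06). In the order of means the step from CTRL to day 7 exceeded the larger SD, and days 7, 14, 21, 42, 28 and 35 followed within it.

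*Kdr* (ENSMUSG00000062960, chromosome 5, 75932827 to 75978458, minus strand), which encodes VEGFR2, had the lowest log2FC of the 8 genes on each of days 7 to 35. CTRL mice ranged from 574 to 722 CPM (median 611). On day 7 the range was 255 to 472 CPM (median 359) and on day 14 it was 163 to 513 CPM (median 333). On both days all mice were below all CTRL mice. On day 21 it was 241 to 488 CPM (median 372), on day 28 it was 129 to 551 CPM (median 399.7), on day 35 it was 231 to 565 CPM (median 371) and on day 42 it was 281 to 620.1 CPM (median 402). The separation from CTRL held for every mouse of days 21, 28 and 35 and for 6 of 7 mice of day 42. The log2FC was -0.82 on day 7 (SE 0.17, adjusted p = 7.76e-05), -0.97 on day 14 (SE 0.16, adjusted p = 6.84e-07) and -0.75 on day 21 (SE 0.16, adjusted p = 9.26e-05). It was -0.70 on day 28 (SE 0.16, adjusted p = 4.07e-04), -0.76 on day 35 (SE 0.16, adjusted p = 1.94e-04) and -0.60 on day 42 (SE 0.19, adjusted p = 0.0166). Day 28 mouse 5, one of the 4 libraries least like their group, had the lowest *Kdr* and the lowest *Vegfa* of all 75 mice, and without these libraries *Kdr* on day 28 was at -0.57 (adjusted p = 0.00453). With no filter on low counts *Kdr* on day 42 did not pass (adjusted p = 0.0526). The coefficient of variation was 8.62% in CTRL and 31.7% on day 14. In order of means, CTRL stood apart from day 42 by more than the larger SD, and days 42, 28, 21, 35, 7 and 14 followed within it.

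*Flt4* (ENSMUSG00000020357, chromosome 11, 49609263 to 49652739, plus strand), which encodes VEGFR3, did not pass the test against CTRL on any day. CTRL mice ranged from 66.7 to 87.3 CPM (median 77.6), and the medians of the 6 days lay between 66.4 and 80.6 CPM. The log2FC lay between -0.21 on day 42 (SE 0.12, adjusted p = 0.203) and 0.09 on day 14 (SE 0.10, adjusted p = 0.459). By edgeR's unadjusted p, 0 of these 6 comparisons were under 0.05. With the compared groups fitted alone, *Flt4* did pass on day 42, at -0.20 (SE 0.06, adjusted p = 0.0164). The highest level was 126 CPM in day 28 mouse 1, another of the 4 libraries. No neighbouring pair of groups in the order of means differed beyond the larger SD.

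*Nrp1* (ENSMUSG00000025810, chromosome 8, 128358604 to 128503363, plus strand) was modestly lower. CTRL mice ranged from 289.5 to 376 CPM (median 325) and the medians of the 6 days lay between 270.5 and 293 CPM, with overlap on every day. The log2FC was -0.32 on day 7 (SE 0.09, adjusted p = 0.00320), -0.23 on day 14 (SE 0.09, adjusted p = 0.0201) and -0.20 on day 21 (SE 0.09, adjusted p = 0.0478). It was -0.20 on day 28 (SE 0.09, adjusted p = 0.0637), -0.26 on day 35 (SE 0.09, adjusted p = 0.0209) and -0.19 on day 42 (SE 0.10, adjusted p = 0.175). Without the filter *Nrp1* did not pass on day 21 (adjusted p = 0.0918), and on day 28 it passed with upper quartile factors (adjusted p = 0.0455) and with the compared groups fitted alone (adjusted p = 0.0281). The fit of the compared groups alone also passed on day 42, at -0.18 (SE 0.06, adjusted p = 0.0165). A microRNA gene that shares 80 exonic bases with *Nrp1* had 0 counts. In order of means, only the step from CTRL to day 42 exceeded the larger SD.

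*Nrp2* (ENSMUSG00000025969, chromosome 1, 62703285 to 62818695, plus strand) was upregulated from day 14 to day 35. CTRL mice ranged from 91.5 to 118 CPM (median 106). On day 7 the range was 86.6 to 137 CPM (median 112), overlapping CTRL, whereas on day 14 it was 128 to 188 CPM (median 154), with all 12 mice above all CTRL mice. On day 21 it was 114 to 226 CPM (median 153), on day 28 it was 90.6 to 212 CPM (median 130.2), on day 35 it was 101 to 210.0 CPM (median 125) and on day 42 it was 97.1 to 166 CPM (median 123). Above every CTRL mouse were 11 of 12 mice on day 21, 7 of 12 on days 28 and 35 and 5 of 7 on day 42. The log2FC was 0.09 on day 7 (SE 0.12, adjusted p = 0.567), 0.57 on day 14 (SE 0.12, adjusted p = 2.54e-05) and 0.62 on day 21 (SE 0.12, adjusted p = 8.04e-06). It was 0.41 on day 28 (SE 0.12, adjusted p = 0.00340), 0.34 on day 35 (SE 0.12, adjusted p = 0.0218) and 0.26 on day 42 (SE 0.13, adjusted p = 0.145). With the compared groups fitted alone, *Nrp2* passed on day 42, at 0.27 (SE 0.07, adjusted p = 0.00700). In order of means, days 21, 14, 28, 35, 42 and 7 and CTRL followed each other within the larger SD.

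Counting genes with no overlap between the groups, *Vegfa* and *Kdr* were entirely below CTRL on day 7, as were 3.8% of all genes, while 7.39% were entirely above. On day 14, *Kdr* was below (6.15% of all genes) and *Vegfc* and *Nrp2* were above (9.46%). *Flt1* and *Kdr* were below on day 21 (4.85% of all genes below, 6.84% above), day 28 (1.34% below, 2.1% above) and day 35 (1.34% below, 2.43% above). On day 42 it was *Flt1* alone (3.37% below, 4.22% above).

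Between days, both upregulated genes rose from day 7 to day 14, where 17% of all genes changed (9.44% higher and 7.53% lower). The log2FC was 0.43 (SE 0.12, adjusted p = 0.00974) for *Vegfc* and 0.48 (SE 0.12, adjusted p = 0.00279) for *Nrp2*. Of the 8 genes, 0 passed edgeR's test from day 14 to day 21 (1.01% of all genes did), from day 21 to day 28 (0.703%), from day 28 to day 35 (1.26%) and from day 35 to day 42 (0%), and DESeq2 called 0 in each step. At an unadjusted p under 0.05 the count was 1 (*Vegfb*), 0, 1 (*Vegfc*) and 1 (*Vegfa*) in these steps. From day 14 to day 42, where 34% of all genes changed (15.2% higher and 18.8% lower), *Vegfa* rose by 0.36 (SE 0.13, adjusted p = 0.0227) and *Vegfb* by 0.28 (SE 0.11, adjusted p = 0.0375) on the log2 scale. *Flt4* fell by 0.30 (SE 0.12, adjusted p = 0.0396) on the log2 scale between these days, and without the 4 libraries it was at -0.25 (adjusted p = 0.0560). Of these calls *Vegfa* alone passed with no filter on low counts. *Kdr* and *Flt1* were at 0.37 (SE 0.18, adjusted p = 0.108) and -0.18 (SE 0.09, adjusted p = 0.130).

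The balance within the family is given per kilobase of exon as mean ± SD, as a description. *Kdr* made up 62.8 ± 1.71% of the summed level of *Flt1*, *Kdr* and *Flt4* in CTRL mice (n = 10), 53.04 ± 4.57% on day 7 (n = 10), 50.6 ± 8.85% on day 14 (n = 12) and 60.3 ± 6.54% on day 42 (n = 7). The lowest share in a single mouse was 37.6%, on day 14. For every 1000 units of *Vegfa* there were 35.8 ± 5.22 units of *Vegfc* in CTRL mice. The ratio was 63.4 ± 13.6 (day 7), 92.8 ± 22.5 (day 14) and 57.4 ± 19.2 (day 42). The highest ratio in a single mouse was 199.5, in day 28 mouse 5, one of the 4 libraries least like their group. The median of day 28 was 61.2.

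In whole lung, fewer cells of a type and less RNA per cell cannot be told apart. The 16 endothelial markers summed to 6050 to 7666 CPM in CTRL mice (median 6394), to 3423 to 5935 CPM on day 14 (median 4840) and to 4955 to 7187 CPM on day 42 (median 5654). On day 14, 13 of the 16 were lower and 0 higher, where 29.9% and 32.4% of all genes were, with a median log2FC of -0.47. *Pecam1*, a junctional adhesion molecule of endothelium, had a log2FC of -0.49 (SE 0.09, adjusted p = 8.37e-06) and *Cdh5*, VE-cadherin, one of -0.47 (SE 0.12, adjusted p = 4.42e-04) on day 14. The 12 alveolar type 1 markers summed to 8822 to 11218 CPM in CTRL mice (median 10009) and to 5864 to 10153 CPM on day 14 (median 8657). On day 14, 6 of them were lower and 3 higher, and *Ager*, a defining type 1 gene, was at -0.16 (SE 0.12, adjusted p = 0.240). Of the 10 alveolar type 2 markers, 6 were lower and 0 higher on day 14, with *Sftpc*, surfactant protein C, at -0.88 (SE 0.18, adjusted p = 2.49e-05). Of 12 macrophage markers, 10 were higher and 0 lower on that day, with the complement gene *C1qa* at 3.08, and of 10 fibroblast and mural markers 6 were higher and 2 lower, with the collagen gene *Col1a2* at 2.30. The part of the macrophages and fibroblasts in the changes of the 8 genes was not tested.

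The receptors and co-receptors were also tested with each library scaled to its endothelial markers, which put the median log2FC of all genes between 0.16 on day 42 and 0.50 on day 14. On this scale *Kdr* was lower on all 6 days, with log2FC of -0.44, -0.53, -0.45, -0.46, -0.43 and -0.49 from day 7 to day 42 and a highest adjusted p of 0.00472. Of all genes 2.68%, 7.13%, 7.31%, 4.88%, 2.19% and 2.45% were lower on these days. *Flt1* was lower on this scale on days 28, 35 and 42, at -0.35 (adjusted p = 0.00330), -0.30 (adjusted p = 0.00768) and -0.45 (adjusted p = 0.00469). On days 7, 14 and 21 *Flt1* was at 0.10 (adjusted p = 0.436), 0.07 (adjusted p = 0.535) and -0.19 (adjusted p = 0.0895). *Nrp2* was higher on days 7 to 35, with log2FC of 0.48, 1.06, 0.97, 0.75 and 0.78, and at 0.44 (adjusted p = 0.162) on day 42. Since 55.3%, 66.1%, 51.2%, 51.3%, 64.5% and 12.5% of all genes were higher on days 7 to 42 on this scale, a higher call here is common. *Flt4* was higher on day 14 at 0.59 (adjusted p = 4.43e-04) and day 21 at 0.38 (adjusted p = 0.0276), and *Nrp1* on day 14 alone at 0.25 (adjusted p = 0.0294). *Vegfa* scaled to the alveolar type 1 markers was lower on days 7 to 35, with log2FC of -0.32, -0.35, -0.29, -0.22 and -0.37, and at -0.24 (adjusted p = 0.0923) on day 42. Of all genes 6.33%, 12.6%, 11.8%, 5.73%, 4.43% and 6.11% were lower on the 6 days on that scale. With the type 1 marker counts summed instead of averaged, the day 28 value of *Vegfa* was -0.14 (adjusted p = 0.130). Scaled to the endothelial markers, *Vegfa* did not pass on any day.

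**Figure D3:**
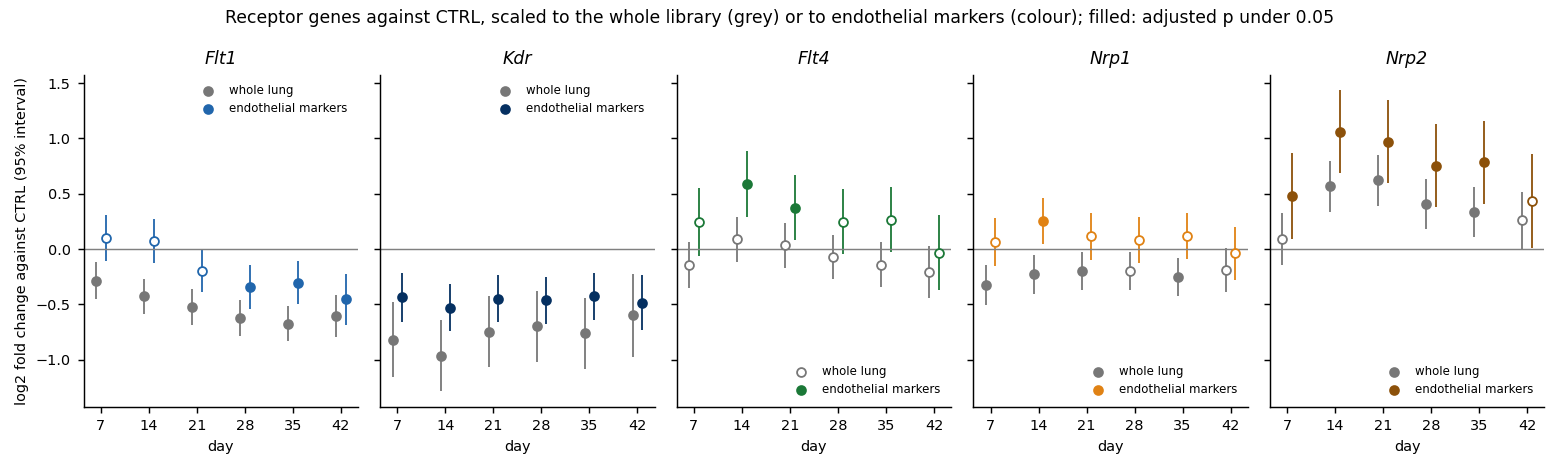
Log2FC against CTRL (y axis, 95% intervals) by day (x axis) of the 5 receptor and co-receptor genes, with whole-library scaling (grey) or scaling to 16 endothelial markers (colour), where filled points passed the test. *Kdr* passed below 0 under both scalings on all 6 days and *Flt1* from day 28 on, and *Nrp2* lies higher under the endothelial scaling.

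On days 14, 28 and 35, mice with less *Vegfa* also had less *Kdr*, while on day 21 the relation was less certain. Pearson's r of their log2 CPM was 0.82 (n = 12, permutation p = 9.70e-04, adjusted 0.00847) on day 14, 0.77 (n = 12, permutation p = 0.00382, adjusted 0.0214) on day 21, 0.94 (n = 12, permutation p = 1.20e-04, adjusted 0.00308) on day 28 and 0.89 (n = 12, permutation p = 2.20e-04, adjusted 0.00308) on day 35. Spearman's rho on these days was 0.85 (permutation p = 7.50e-04, adjusted 0.00803), 0.53 (permutation p = 0.0792, adjusted 0.202), 0.85 (permutation p = 8.60e-04, adjusted 0.00803) and 0.86 (permutation p = 5.20e-04, adjusted 0.00803). Without the 2 mice farthest from the median of *Vegfa*, r was 0.74, 0.39, 0.75 and 0.86, so the day 21 relation, whose rank test did not pass, rested on 2 mice. In CTRL mice r was 0.41 (n = 10, permutation p = 0.238, adjusted 0.400), on day 7 it was 0.41 (n = 10, permutation p = 0.243, adjusted 0.400) and on day 42 it was 0.77 (n = 7, exact permutation p = 0.0452, adjusted 0.135), and rho was 0.54 (permutation p = 0.113, adjusted 0.243), 0.33 (permutation p = 0.347, adjusted 0.512) and 0.79 (exact permutation p = 0.0480, adjusted 0.171). Without the 4 libraries r was 0.82 on day 14 and 0.92 on day 28. *Vegfa* and *Flt1* passed the test of Pearson's r in 2 of 7 groups, with r from -0.10 to 0.79. They were related on day 28, with r of 0.79 (n = 12, permutation p = 0.00121, adjusted 0.00847) and rho of 0.81 (permutation p = 0.00232, adjusted 0.0162). On day 35 their r was 0.73 (n = 12, permutation p = 0.00602, adjusted 0.0281) and rho 0.69 (permutation p = 0.0158, adjusted 0.0735), so that the rank test did not pass, and without the 2 farthest mice r was 0.67 and 0.85 on these days. *Vegfc* with *Flt4* and *Vegfc* with *Nrp2* passed in 0 of 7 groups each, with r from -0.22 to 0.69 and from -0.10 to 0.69. In all, 28 relations were tested, two-sided, and adjusted values are over these 28.

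**Figure D4:**
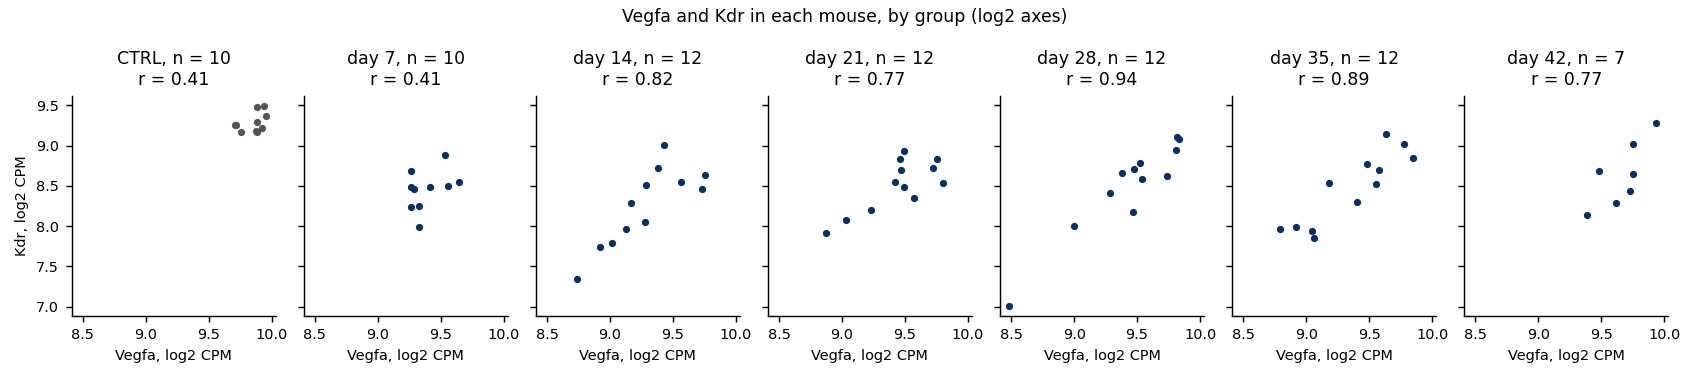
*Kdr* against *Vegfa* in each mouse, both in log2 CPM, with 1 panel per group and the Pearson's r of that group. Mice of days 14, 28 and 35 spread along a rising line, with r of 0.82, 0.94 and 0.89, while the r of the 10 CTRL mice is 0.41.

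Both genes of each relation come from the same library, and the levels also went with cell type markers. After removal of group means, over 75 mice and as a description, *Vegfa* had an r of 0.86 with the mean log2 CPM of the endothelial markers and of 0.79 with that of the alveolar type 1 markers. *Kdr* had an r of 0.83 and 0.72 with the same lists. With the capillary subtype markers r was 0.87 for *Vegfa* and 0.90 for *Kdr*. Against the fibroblast and mural markers r was -0.71 for *Vegfa* and -0.69 for *Kdr*. *Nrp2* went with the macrophage (r = 0.74), lymphatic endothelial (r = 0.66) and fibroblast and mural markers (r = 0.64). It went against the capillary subtype (r = -0.65) and endothelial markers (r = -0.61). The highest r of *Flt4* were 0.72 with the lymphatic endothelial markers and 0.48 with the fibroblast and mural markers. Those of *Vegfc* were 0.62 with the lymphatic endothelial and 0.57 with the macrophage markers. *Flt1* had an r of 0.45 with the endothelial markers. The part of cell composition in the *Vegfa* and *Kdr* relation was not tested.

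The other ligands of the family moved apart. *Pgf*, placental growth factor, rose from 5.83 ± 1.06 CPM in CTRL mice (mean ± SD, n = 10) to 17.8 ± 5.85 CPM on day 14 (n = 12), a log2FC of 1.61 (SE 0.21, adjusted p = 5.24e-10), and was still higher on day 42 at 0.93 (SE 0.23, adjusted p = 0.00186). *Pgf* passed on all 6 days. *Vegfd* was at 73.7 ± 6.77 CPM in CTRL mice and 45.99 ± 4.68 CPM on day 42, a log2FC of -0.68 (SE 0.11, adjusted p = 1.20e-06), and passed on days 21 to 42. On day 14 *Vegfd* was at -0.16 (SE 0.09, adjusted p = 0.108).

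The other partners of the neuropilins were mixed. The calls among 12 class 3 semaphorins and plexins were 1 higher and 5 lower on day 7 (24.8% and 20.9% of all genes), 3 higher and 3 lower on day 14 (32.4% and 29.9% of all genes) and 1 higher and 1 lower on day 42 (13.6% and 11% of all genes). On day 14 the guidance cue *Sema3d* was higher with a log2FC of 0.82, and *Sema3g* (-0.70) and *Sema3c* (-0.48) were lower. *Sema3f*, a ligand of *Nrp2*, was higher at 0.24, and without the 4 libraries at 0.19 (adjusted p = 0.0503). Downstream of the receptors, the calls among 28 signaling genes were 12 higher and 7 lower on day 14 and 4 higher and 4 lower on day 42, where 62.3% and 24.5% of all genes changed, with median log2FC of 0.08 and 0.07. *Ptprb*, the vascular endothelial phosphatase that dampens *Tek* and *Kdr* signaling, was lower on all 6 days (-0.74 on day 14), as was *Prkca*, protein kinase C alpha (-0.37 on day 14). *Nras*, a small GTPase of the MAP kinase pathway, was higher on day 14 at 0.42. *Sphk1*, a sphingosine kinase, was higher at 0.62 on day 14, and without the 4 libraries at 0.35 (adjusted p = 0.125).

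Genes of vessel growth were mostly lower. The calls among 15 angiopoietin and Notch genes were 1 higher and 12 lower on day 7, 1 higher and 13 lower on day 14 and 0 higher and 8 lower on day 42, where 20.9%, 29.9% and 11% of all genes were lower, with median log2FC of -0.48, -0.64 and -0.40. *Esm1*, an endothelial tip cell gene induced by VEGF-A, was at 44.4 ± 6.07 CPM in CTRL mice and 11.7 ± 4.79 CPM on day 14, a log2FC of -1.93 (SE 0.20, adjusted p = 1.65e-12). On day 42 *Esm1* was at 21.0 ± 5.07 CPM, a log2FC of -1.08 (SE 0.24, adjusted p = 4.28e-04). *Tek*, the angiopoietin receptor, was lower on day 14 at -0.87 (SE 0.12, adjusted p = 2.94e-09). Its ligands *Angpt1* and *Angpt2* were lower on that day too, at -0.62 (SE 0.09, adjusted p = 9.87e-09) and -0.64 (SE 0.11, adjusted p = 6.65e-07), and *Angpt2* was at -0.17 (SE 0.13, adjusted p = 0.342) on day 42. *Aplnr*, the apelin receptor, was at -1.49 on day 7. *Angptl4*, an angiopoietin-like inhibitor of lipoprotein lipase, was the gene that was higher, at 1.30 on day 7 and 1.26 on day 14. The calls among 10 capillary subtype markers were 0 higher and 5 lower on day 7, 0 higher and 7 lower on day 14 and 0 higher and 5 lower on day 42, beside the same shares, with *Ednrb*, an endothelin receptor, at -1.30 and *Fibin* at -1.30 on day 14. Their median log2FC was -0.41, -0.71 and -0.43 on days 7, 14 and 42, against -0.39, -0.47 and -0.18 for the 16 endothelial markers. *Kdr* relative to the capillary subtype markers was not tested.

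**Figure D5:**
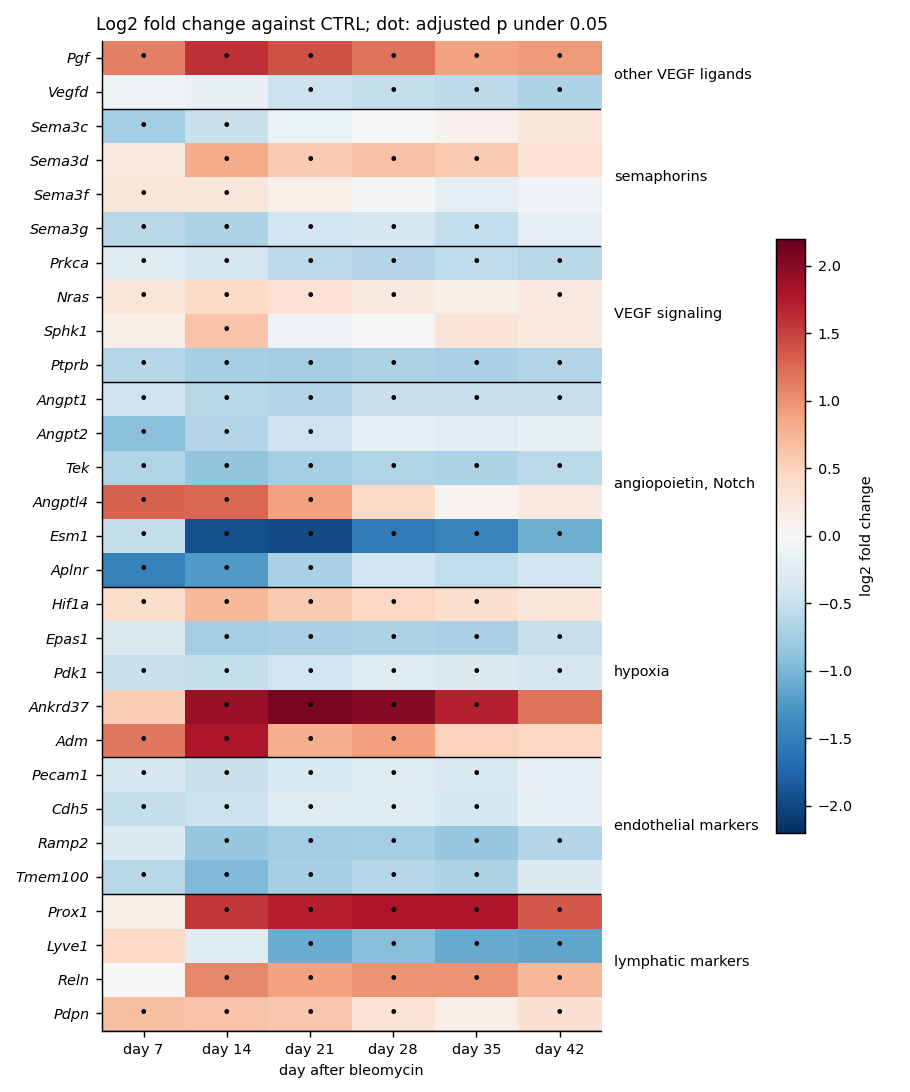
Log2FC against CTRL (colour scale, log2) of the named genes around the VEGF family (rows, grouped by list) on the 6 days (columns), with a dot where the test was passed. *Esm1*, *Tek* and *Ptprb* are lower with a dot on all 6 days and *Pgf* is higher with a dot on all 6 days, while *Prox1* is higher with a dot from day 14 on. On day 28 the calls of *Pecam1*, *Cdh5*, *Sema3d*, *Sema3g* and *Adm* were lost without the 4 libraries least like their group. Their edgeR adjusted p-values were then 0.0734, 0.185, 0.0599, 0.0667 and 0.142.

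The calls among 16 genes of hypoxia sensing and response were 9 higher and 4 lower on day 14 (32.4% and 29.9% of all genes) and 2 higher and 3 lower on day 42 (13.6% and 11% of all genes), with median log2FC of 0.46 and 0.12. *Hif1a*, a hypoxia-inducible factor, was at 101 ± 6.68 CPM in CTRL mice and 165 ± 30.6 CPM on day 14, a log2FC of 0.71 (SE 0.12, adjusted p = 5.72e-07). *Epas1*, the hypoxia-inducible factor abundant in endothelium, moved the other way, from 3610.1 ± 320.2 to 2159 ± 503 CPM, a log2FC of -0.74 (SE 0.14, adjusted p = 3.91e-06). *Ankrd37* and *Adm*, both induced by hypoxia, were higher on day 14 at 1.90 and 1.77, and *Pdk1*, a kinase that limits pyruvate oxidation, was lower at -0.52. *Vegfa*, itself a gene that hypoxia induces, was lower on the same day. The calls among the 5 lymphatic endothelial markers tested were 4 higher and 0 lower on day 14 and 4 higher and 1 lower on day 42, beside the same shares, and the remaining marker, *Ccl21a*, had at most 1 count in a library. *Prox1*, the transcription factor of lymphatic identity, rose from 3.88 ± 0.589 to 11.4 ± 2.76 CPM on day 14, a log2FC of 1.55 (SE 0.22, adjusted p = 1.14e-08). *Lyve1*, a hyaluronan receptor also found on macrophages, was at -0.26 (SE 0.24, adjusted p = 0.351) on day 14 and lower on day 42 at -1.14 (SE 0.29, adjusted p = 0.00256). *Reln*, reelin, was higher on day 14 at 1.05, and so was *Pdpn*, podoplanin, which is also an alveolar type 1 marker, at 0.62.

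The genes most like each of the 8, by Pearson's r of log2 CPM over the 75 mice among 13094 genes, were *Arap3* (0.93), *Rgs9* (0.90) and *Notch4* (0.89) for *Vegfa*. For *Kdr* they were *Adgre5* (0.93), *Tspan18* (0.93) and *Tbx3* (0.93), and for *Flt1* *Adgrl3* (0.88), *Abca5* (0.86) and *Prkca* (0.82). *Nrp1* was most like *Utrn* (0.88), *Atrn* (0.87) and *Arhgef12* (0.87), and *Nrp2* most like *Myo7a* (0.91), *Axl* (0.90) and *Ltbp2* (0.88). For the other ligands they were *Igfbp7* (0.80), *Arf2* (0.79) and *Mest* (0.79) with *Vegfc* and *Coq10a* (0.70), *Bckdha* (0.68) and *Pla2g16* (0.65) with *Vegfb*. *Flt4* was most like *Mta1* (0.76), *Chst11* (0.72) and *Arhgef7* (0.72). The closest companions of *Vegfb* and *Flt4* had the lowest r of the 8 genes. Among the 8 themselves, *Vegfa* and *Kdr* were the closest pair (r = 0.87), and *Vegfc* and *Kdr* the most opposed (r = -0.60). These values include the differences between days and the scaling that all genes of a library share, and they are given as a description.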

How the data were processed

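Lung RNA of 75 mice was sequenced by the authors as poly(A)-selected, stranded single-end libraries (NEBNext Ultra II Directional) and aligned with STAR 2.7.0f to GRCm38 with Ensembl 96 annotation, and the deposited values are raw counts per gene without normalization. The counting program and its strand setting are not given in the sources used here. Total counts ran from 9240291 to 14665247 per library, and 7 groups (CTRL and 6 days) were taken from the sample labels. Low genes were removed with filterByExpr of edgeR 4.0.16 (R 4.3.3), which left 16221 of 55536 genes, and group means were fitted over all 75 mice with TMM factors and the quasi-likelihood F test. P-values were adjusted over all genes tested by Benjamini-Hochberg, with a threshold of 0.05.

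Correlations and exact or 100000-fold permutation tests were run with numpy 2.4.6 and scipy 1.17.1, on log2 CPM with a prior count of 2. Levels per kilobase used the union of exons. In separate fits each library was scaled to the geometric mean count of 16 endothelial or 12 alveolar type 1 markers instead of its total. The 8 genes and 12 lists around them (144 genes tested) were chosen with earlier results of these data known. Of the lists, 14 preset genes were named, with the 2 highest and 2 lowest log2FC per list among genes called on day 14, and the 3 genes with the highest r for each of the 8. Alternatives were DESeq2 1.42.0, other scaling factors, no filter, fits of the compared groups alone, a replicate block and, chosen after seeing the data, leaving out 4 libraries. The fit was tested on simulated data. For day 14 against CTRL it recovered 66 of 99 genes changed by a log2FC of 0.5 and 86 of 100 changed by 1. There were 12 false calls among the unchanged genes of the 16117 tested. For day 42 against CTRL it recovered fewer, 56 of 98 and 79 of 99, with 15 false calls among the unchanged genes of the 16120 tested. Only these few genes were changed, whereas 62.3% (day 14) and 24.5% (day 42) of all genes were called in the data. The recovery and false calls therefore need not carry over to the data. Coordinates are those of the GRCm38 gene annotation. The deposited table had 0 columns that could not be tied to a mouse.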

Additional observations from a re-analysis of the deposited data

Results flagged for a closer look

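Differences between days of the change from CTRL met the test for 5 gene and day pairs, with edgeR's quasi-likelihood test and adjustment over all genes tested. *Vegfa* had a log2FC of 0.36 (SE 0.13, adjusted p = 0.0227) and *Vegfb* of 0.28 (SE 0.11, adjusted p = 0.0375) on day 42 against day 14, both lower on day 14. *Flt4*, which did not pass against CTRL on either day, had a log2FC of -0.30 (SE 0.12, adjusted p = 0.0396) between the same days. *Vegfc* and *Nrp2* had log2FC of 0.43 (SE 0.12, adjusted p = 0.00974) and 0.48 (SE 0.12, adjusted p = 0.00279) on day 14 against day 7. A single mouse far from the rest of its group was looked for in the 24 sets of 4 to 10 mice, and 0 were found, where chance gives about 1 in 20. These sets came from CTRL, day 7 and day 42. The groups of 12 mice (days 14 to 35), which hold the 4 libraries least like their group, were not searched.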

How the results depend on the processing

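Of 392 comparisons of one of the 8 genes under an alternative, 373 kept their direction and their side of the threshold, 11 lost the call, 7 gained one and 1 changed sign. The change of sign was *Vegfb* on day 28 against CTRL, at -0.031 (adjusted p = 0.820) without the 4 libraries least like their group and 0.05 with them. Fitted on the compared groups alone, 7 of the 8 genes passed on day 42 against CTRL (2 higher and 5 lower), against 3 in the fit over all mice, and 5 on day 42 against day 14, against 3. Without the filter on low counts 1 gene, *Vegfa*, passed on day 42 against day 14. *Vegfa* relative to summed alveolar type 1 marker counts was at -0.14 (adjusted p = 0.130) on day 28. The cause of these shifts was not tested. Counts of the 8 genes called stayed within 1.5 times under the other alternatives. Replicate numbers did not pair the mice: over 204 pairs of same-numbered mice the median correlation of their deviations was 0.0057, and 7 of 75 mice correlated best with their own number. With the replicate number as a block, 5, 7, 6, 6, 5 and 3 of the 8 genes passed on days 7 to 42 against CTRL: *Vegfc* on day 35 was lost (adjusted p = 0.0554) and *Nrp1* on day 28 gained (adjusted p = 0.0377). *Vegfb* on day 42 against day 14 was also lost (adjusted p = 0.0510). At this depth the low count of *Vegfb* (115 at the least) still allowed a value in every library.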
